A study of Mus musculus with 7 samples.

Results

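The SOX proteins are transcription factors that bind DNA through an HMG box, and the loci of 7 of their genes were examined for H3K27me3 in mouse liver. This mark, trimethylation of lysine 27 on histone H3, is laid down by Polycomb repressive complex 2. The loci were the domain around Sox1 on chromosome 8 from 11937201 to 12627600 and windows of 100 kb to each side of Sox2, Sox14, Sox21, Sox11, Sox9 and Sox17. All positions of islands and windows are in mm9, and the gene positions were given to the nearest 10 kb. The 7 lists held 122262 islands, and 146 of them lay at these loci, between 18 and 24 in a liver. The Sox1 domain had been chosen by the score rank and the cover of its islands in these same lists, so both are given as a description. Its limits are the outermost edges of the islands merged over the 7 lists, so near-full cover is partly set by how it was bounded, unlike in the windows around the other 6 genes. The other 6 loci were taken for their gene family, with earlier results of these lists known.

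The lists came from single livers of 7-week-old male mice of the outbred CD-1 stock. A control group of 3 mice had received the vehicle, 1% DMSO in corn oil, and 4 mice had received TCPOBOP at 3 mg/kg, with livers taken 27 h after the injection. TCPOBOP is a ligand of the constitutive androstane receptor, a nuclear receptor that induces drug metabolism and growth in mouse liver, and the comparison asks whether this exposure moved the repressive mark. Each sample was 1 liver from 1 animal, and the descriptions of all 7 libraries carried the same flow cell and lane code.

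SOX genes specify cell types. Sox1 and Sox2 (group B1) keep neural progenitors undifferentiated, and Sox2 also acts in pluripotent cells. Sox14 and Sox21 (group B2) act in neurons, and Sox11 (group C) acts in differentiating neurons. Sox9 (group E) directs cartilage and testis formation and in adult liver marks bile duct cells, and Sox17 (group F) acts in early endoderm and in blood vessel lining. Polycomb repression of such developmental regulators in tissues that do not use them is well known. Whole liver was used, so a mark carried by fewer cells and a weaker mark in every cell cannot be told apart. The lists hold no expression values, so the labelled tissue was not checked against marker genes.

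The numbers of islands per list ran from 14167 to 20550 and their total length from 537 to 605 Mb. Vehicle replicate 2 and TCPOBOP replicate 2 both had 537 Mb and the others 583 Mb or more. The files state no read numbers. An island is a stretch of 400 bp windows that SICER joined, and its score is the authors' own value, which grows with its width and with the depth of the library. Scores were therefore used only to rank islands within a list. The score divided by the number of windows in the island, the score per window, served as a measure of density within a list.

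CpG dinucleotides, which are abundant at many Polycomb targets, were counted in the 250 bases before the transcription start in the RefSeq promoter table, whose build is GRCm38.p6. The table matched 5 of the 7 genes, Sox1, Sox2, Sox14, Sox21 and Sox11. Sox9 and Sox17 were not matched. Sequences are shown for Sox1, the top-ranked domain, for its group B1 relative Sox2, and for Sox11, the lowest-ranked of the matched loci. They are written 5′ to 3′ on the strand of the gene with each CG in capitals. They are chr8:12395269-12395518 (plus strand), chr3:34649745-34649994 (plus strand) and chr12:27342719-27342968 (minus strand), all in GRCm38.p6.
Sox1: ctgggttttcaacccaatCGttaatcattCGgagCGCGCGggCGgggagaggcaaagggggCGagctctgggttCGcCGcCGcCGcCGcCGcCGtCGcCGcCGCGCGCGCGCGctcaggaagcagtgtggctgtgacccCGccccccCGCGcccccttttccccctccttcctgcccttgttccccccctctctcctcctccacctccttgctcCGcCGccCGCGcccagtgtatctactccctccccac
Sox2: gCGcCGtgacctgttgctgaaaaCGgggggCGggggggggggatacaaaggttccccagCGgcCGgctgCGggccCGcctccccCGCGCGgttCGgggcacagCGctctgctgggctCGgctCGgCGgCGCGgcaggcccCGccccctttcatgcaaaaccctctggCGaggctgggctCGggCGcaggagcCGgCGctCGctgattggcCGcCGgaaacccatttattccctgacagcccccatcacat
Sox11: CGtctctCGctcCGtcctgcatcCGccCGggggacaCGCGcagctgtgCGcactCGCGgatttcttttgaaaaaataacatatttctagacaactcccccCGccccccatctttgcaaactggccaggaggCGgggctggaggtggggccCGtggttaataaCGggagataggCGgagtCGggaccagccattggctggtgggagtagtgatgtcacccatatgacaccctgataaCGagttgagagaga
The motif searched was CG, which reads the same on both strands, and 92.1% of the 32851 promoters in the table held at least 1. The Sox1 stretch held 29 and the Sox2 stretch 27, against a median of 6 over all promoters. As many as in Sox1 were found in 6.78% of promoters and as many as in Sox2 in 8.56%. The Sox14 stretch held 23, a number reached by 13.3% of promoters. The Sox21 and Sox11 stretches held 17 each, reached by 23.5%. All 5 were above the median over promoters.

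The Sox1 domain was almost wholly under islands in every liver. In the RefSeq gene order Sox1 overlaps the long noncoding RNA gene Sox1ot and lies between the protein-coding genes A230072I06Rik and Spaca7. Islands covered 98.4, 99.2 and 99.8% of the 690.4 kb in vehicle replicates 1 to 3 and 98.7, 99.2, 99.2 and 98.7% in TCPOBOP replicates 1 to 4. The TCPOBOP livers all lay inside the vehicle range. Islands of all 7 livers shared 97.0% of the domain, or 670 kb.

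**Figure D1:**
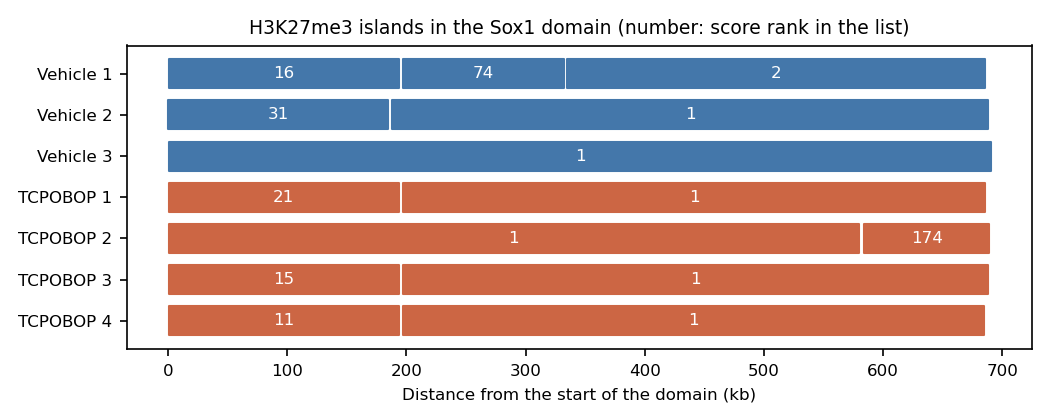
Islands in the Sox1 domain in each liver. Each bar is an island on a scale of distance from the start of the domain in kb, with vehicle livers in blue and TCPOBOP livers in orange, and the number in it is its rank by score in its own list. The bars span nearly the whole 690.4 kb in all 7 livers and differ in where narrow gaps cut them.

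What differed between livers was where the domain was cut. It was a single island of 689.2 kb in vehicle replicate 3, 3 islands in vehicle replicate 1 and 2 islands in each of the others. The 7 gaps were 2.8 to 4.0 kb long, and SICER joins windows across gaps of up to 2400 bp. In 4 livers, vehicle replicate 1 and TCPOBOP replicates 1, 3 and 4, the gaps shared the stretch from 12131201 to 12134000. Vehicle replicate 2 was cut nearby, from 12121601 to 12124800, and TCPOBOP replicate 2 only at 12517201 to 12521200. The outer edges moved little. The first island began within 1.2 kb in all 7 livers, between 11937201 and 11938401, and the last ended within 5.6 kb, between 12622000 and 12627600.

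The widest island of the domain measured 350.8, 500.8 and 689.2 kb in vehicle replicates 1 to 3 and 488.4, 579.6, 491.6 and 488.0 kb in TCPOBOP replicates 1 to 4. Vehicle livers held both the narrowest and the widest, so the groups overlapped. The means were 514 ± 170 kb (SD, n = 3) and 512 ± 45.2 kb (SD, n = 4), a difference of -1.70 kb (95% interval -201 to 229 kb, two-sided exact permutation p = 1). This difference rested on single livers. Without vehicle replicate 3 it was 86.1 kb, and without TCPOBOP replicate 1, 3 or 4 it was 6.13, 5.07 or 6.27 kb. The cover averaged 99.2 ± 0.729% and 99.0 ± 0.268%, a difference of -0.193 percentage points (95% interval -1.10 to 0.811, exact permutation p = 0.629). Without vehicle replicate 3 it was 0.145. Cover was 98.4% or more in every liver, in a domain bounded at its own island edges. The cover test therefore had little room to show a gain and is given as a description. The domain was also chosen by score rank, and the score grows with width, so the width test is a description as well.

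The island ranked 1 by score lay in the Sox1 domain in 6 of the 7 lists, and in vehicle replicate 1, where the domain was cut into 3, its best island ranked 2. The summed score of those 3 islands was 1.59 times the highest score of a single island in that list. Scores were not summed for regions outside the Sox loci, so this gives no rank for the domain as a whole. By score per window the best island of the domain ranked 129 to 336, within the top 1.88% of each list. The widest island of the domain, which was often not the one with the best score per window, was also the widest of the list in 5 livers and ranked 3 in width in TCPOBOP replicate 3 and 14 in vehicle replicate 1. The regions nearest to it in score rank, by the mean absolute difference of rank over the 7 lists, lay on chromosome 15 from 102550801 to 102923600 (difference 1.57), chromosome 6 from 51972401 to 52298400 (2.43) and chromosome 19 from 44640001 to 44936400 (3.71). They were shorter, at 372.8, 326.0 and 296.4 kb.

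Sox2, the other group B1 gene, was under a well-scored island in all 7 livers, with ragged flanks. In RefSeq it overlaps the noncoding RNA gene Sox2ot and lies between Dnajc19 and Atp11b. The island over the gene position was 60.4, 76.4 and 93.2 kb wide in vehicle replicates 1 to 3 and 99.2, 65.2, 104.4 and 54.0 kb wide in TCPOBOP replicates 1 to 4. The narrowest and the widest were both in TCPOBOP livers. From 20 kb before the position to 20 kb after it, all 7 livers were fully covered. Farther out the islands differed, and the start of the central island varied by 44.4 kb and its end by 52.4 kb.

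Islands covered 80.4, 52.0 and 56.6% of the Sox2 window in vehicle replicates 1 to 3 and 79.6, 65.4, 82.6 and 52.0% in TCPOBOP replicates 1 to 4. Both groups began at 52.0% and their ranges overlapped almost wholly. The difference of 6.90 percentage points had a 95% interval of -34.9 to 36.5 (exact permutation p = 0.629). It ranged from 1.40 without vehicle replicate 2 to 15.6 without vehicle replicate 1. The central island, the widest of the window in each liver, differed in width by 4.03 kb (95% interval -58.3 to 59.3 kb, exact permutation p = 0.857). That difference was -4.10 kb without vehicle replicate 1, -2.13 kb without TCPOBOP replicate 1 and -3.87 kb without TCPOBOP replicate 3. It ranked 184 to 429 by score, always in the top 2.92%, and 76 to 1141 by score per window.

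**Figure D2:**
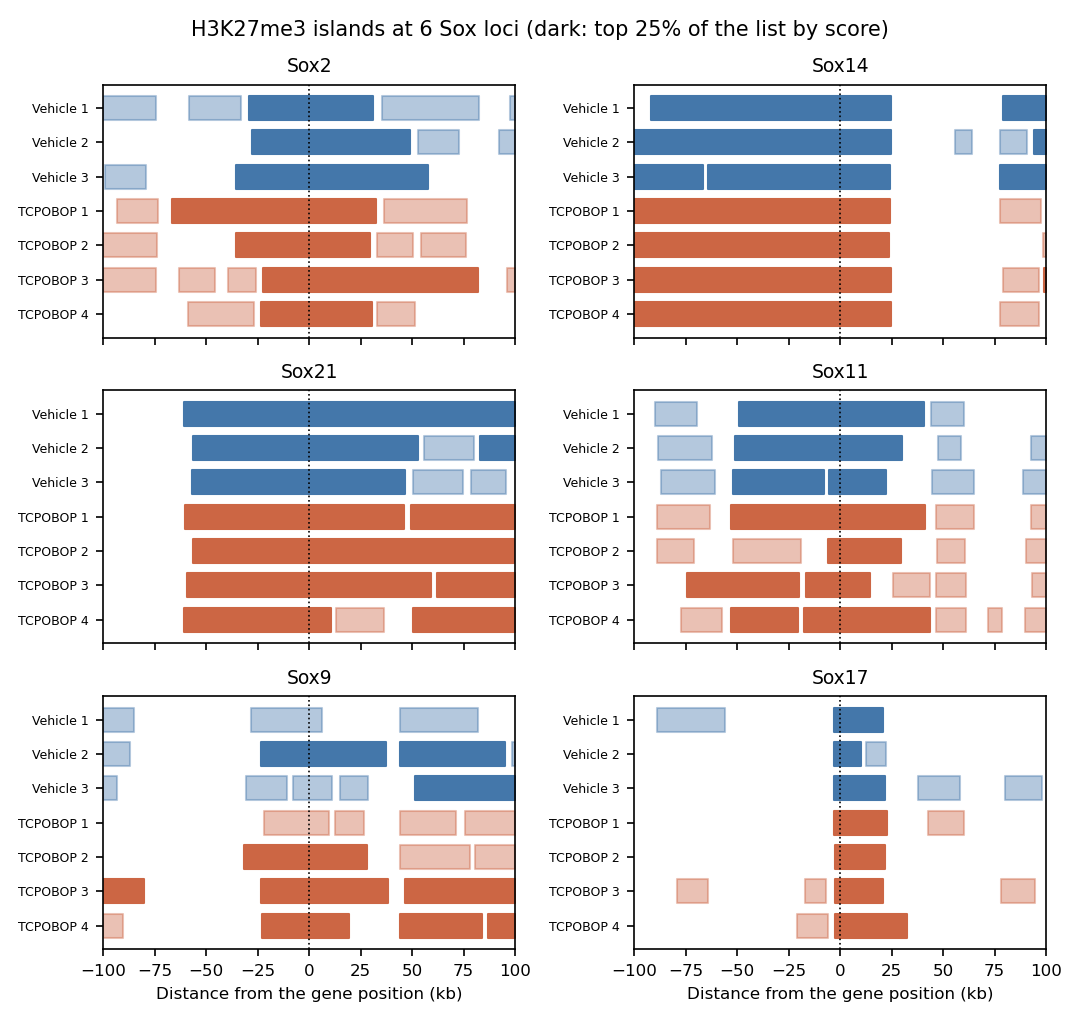
Islands within 100 kb of the other 6 gene positions. Each bar is an island in 1 liver, drawn by distance from the gene position (dotted line) in kb and cut at the window's edge, with vehicle livers in blue and TCPOBOP livers in orange; dark bars are among the top 25% of islands of their list by score and pale bars are not. All 6 positions lie under an island in all 7 livers, and the left edge at Sox17 and the right edge at Sox14 line up across livers.

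Sox14 lay under a wide island with a regular far end. Its neighbours in RefSeq are Cldn18 and Il20rb. The island over the position was 116.8, 130.8 and 88.0 kb wide in vehicle replicates 1 to 3 and 128.4, 129.6, 129.2 and 130.8 kb wide in TCPOBOP replicates 1 to 4. The TCPOBOP livers lay within 2.4 kb of each other. The narrowest island was in vehicle replicate 3, where it began only 64.0 kb before the position. There a gap of 2.8 kb parted it from a separate island beyond. The region into which these islands merged over all livers had a cover of 89.3, 100 and 97.2% in vehicle replicates 1 to 3. In TCPOBOP replicates 1 to 4 its cover was 98.2, 99.1, 98.8 and 100%. The domain ended between 99793600 and 99794800 on chromosome 9 in all 7 livers, a spread of 1.2 kb. From 30 kb to 50 kb past the position no liver had an island.

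The width at Sox14 averaged 112 ± 21.8 kb with vehicle (SD, n = 3) and 130 ± 1.00 kb with TCPOBOP (SD, n = 4). The difference of 17.6 kb did not pass the test (95% interval -2.40 to 42.8 kb, exact permutation p = 0.143). Without vehicle replicate 3 it was 5.70 kb, and without vehicle replicate 2 it was 27.1 kb, with every TCPOBOP liver above both remaining vehicle livers (exact permutation p = 0.0667, the smallest that 2 against 4 livers allow). Cover of the window was 68.8, 76.0 and 71.8% with vehicle and 72.0, 62.4, 71.4 and 71.8% with TCPOBOP, a difference of -2.80 percentage points (95% interval -19.1 to 3.27, exact permutation p = 0.543). Without TCPOBOP replicate 2, the lowest, it was -0.467. Sox14 ranked 195 to 477 by score but 1457 to 1963 by score per window, so it stood lower by density than by score in every list.

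Sox21, the other group B2 gene, had the highest mean cover of the 6 windows. RefSeq places it between Gpr180 and Gm9376, overlapping the noncoding RNA gene Gm4675. Cover was 80.4, 75.0 and 72.4% in vehicle replicates 1 to 3 and 78.4, 78.0, 78.2 and 72.0% in TCPOBOP replicates 1 to 4. The groups overlapped, and their means differed by 0.717 percentage points (95% interval -10.1 to 6.0, exact permutation p = 0.8286). Without vehicle replicate 3 the difference was -1.05. All 7 livers began their domain 56.4 to 60.8 kb before the position, and none had an island in the 30 kb at the window's lower edge.

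On the other side of Sox21 the extent of the islands varied. The island over the position was 184.0, 109.2 and 103.6 kb wide with vehicle and 106.4, 156.0, 118.4 and 71.2 kb wide with TCPOBOP. It was widest in vehicle replicate 1 and narrowest in TCPOBOP replicate 4, where it ended 10.4 kb past the position and the next island began at 13.2 kb. The width of the island over the position differed by -19.3 kb (95% interval -117 to 81.1 kb, exact permutation p = 0.514), and by 6.6 kb without vehicle replicate 1. Its rank by score was 135 to 430, the top 2.34% or better.

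Sox11 lay in a domain of several islands. Its RefSeq neighbours are Cmpk2 and Dcdc2c. The window held 3, 4 and 5 islands in vehicle replicates 1 to 3 and 4, 5, 5 and 6 in TCPOBOP replicates 1 to 4. Cover was 63.2, 63.0 and 64.6% in the vehicle livers and 72.8, 54.8, 62.6 and 72.2% in the TCPOBOP livers. The vehicle livers were close together and the TCPOBOP livers lay on both sides of them. The difference was 2.00 percentage points (95% interval -23.2 to 18.8, exact permutation p = 0.943). It was -0.400 without TCPOBOP replicate 1 and -0.200 without TCPOBOP replicate 4.

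The widest island at Sox11 was 90.0, 81.2 and 44.0 kb with vehicle and 94.0, 35.6, 54.4 and 61.2 kb with TCPOBOP. In vehicle replicates 1 and 2 and TCPOBOP replicate 1 this island was unbroken around the position, whereas in the other 4 livers a gap cut it between 20.4 and 5.2 kb before the position. The difference was -10.4 kb (95% interval -70.4 to 65.9 kb, exact permutation p = 0.571). It ranged from -24.3 kb without vehicle replicate 3 to -1.30 kb without vehicle replicate 1. The best rank by score was 629 to 1177 in the 3 livers with the unbroken island and 2152 to 2587 in the others. By score per window the best Sox11 islands ranked 822 to 3593.

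Sox9 was covered less, and the island over it scored lower. RefSeq places it between Gm11677 and Slc39a11. The island over the position was 34.4, 60.4 and 18.8 kb wide in vehicle replicates 1 to 3 and 31.6, 59.6, 62.0 and 42.0 kb wide in TCPOBOP replicates 1 to 4. By score it was within the top 9.83% of islands in vehicle replicate 2 but only within the top 53.3% in vehicle replicate 1. By score per window it ranked at 19.6 to 75.8% of its list, with a median of 39.8% beside medians of 2.45 to 16.1% at the other 5 positions.

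The marked stretches around Sox9 were parted by gaps. A block past the position began 44.0 to 51.2 kb from it in each list. Between 80 and 40 kb before the position no liver had an island. Cover of the window was 43.6, 63.2 and 54.2% with vehicle and 48.8, 56.4, 67.8 and 52.4% with TCPOBOP, a difference of 2.68 percentage points (95% interval -14.9 to 29.4, exact permutation p = 0.714). Without vehicle replicate 1 it was -2.35 and without TCPOBOP replicate 3 it was -1.13. The widest island, which was not always the one over the position, was 46.4, 60.4 and 58.8 kb with vehicle and 31.6, 59.6, 78.0 and 71.6 kb with TCPOBOP. It differed by 5.00 kb (95% interval -61.7 to 46.5 kb, exact permutation p = 0.743), and by -0.933 kb without TCPOBOP replicate 3. That over the position differed by 10.9 kb (95% interval -29.2 to 43.2 kb, exact permutation p = 0.543).

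Sox17 carried a narrow island of high score per window, and little else near it was marked. In RefSeq it lies between Rp1 and Mrpl15. The island over the position was 23.6, 12.8 and 24.8 kb wide in vehicle replicates 1 to 3 and 25.6, 24.4, 23.2 and 34.8 kb wide in TCPOBOP replicates 1 to 4. It was narrowest in vehicle replicate 2, where it ended 10.0 kb past the position and a second island began at 12.8 kb, and widest in TCPOBOP replicate 4. It began 2.4 or 2.8 kb before the position in all 7 livers, at 4477201 or 4477601 on chromosome 1, whereas its end varied by 22.4 kb. Of all island edges, 1.35% (mean of the 7 lists) had an edge of the same kind within 400 bp in every other list. No other edge at the 7 loci did. Within 1200 bp the share of all edges was 4.05%, and the first edge at Sox1 and the far end at Sox14 were then matched too. These edges were picked because they lined up, so the shares are background and no test.

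The rest of the Sox17 window was marked in few livers. Of the 5 regions into which its islands merged, only the one over the position had islands in all 7 livers. Each of the other 4 had islands in 2 livers. For the region from 4459201 to 4474000 these were TCPOBOP replicates 3 and 4, and for each of the rest 1 vehicle and 1 TCPOBOP liver. The nearest island beyond the window lay 386 to 521 kb from the position, against 102.0 to 143 kb for the other 5 positions. Cover of the window was 28.2, 11.2 and 31.6% in vehicle replicates 1 to 3 and 21.6, 12.2, 32.8 and 24.8% in TCPOBOP replicates 1 to 4. The lowest value of each group was in its replicate 2, the livers with the shortest total length of islands; the part of that length in this result was not tested. The difference of -0.817 percentage points had a 95% interval of -25.7 to 22.4 (exact permutation p = 0.914), and it was 1.45 without vehicle replicate 1, 3.15 without vehicle replicate 3 and 2.73 without TCPOBOP replicate 2. The widest island of the window, which in vehicle replicate 1 was another one of 32.8 kb, differed by 3.53 kb (95% interval -9.60 to 22.0 kb, exact permutation p = 0.571), and by -1.80 kb without vehicle replicate 2. That over the position differed by 6.6 kb (95% interval -2.27 to 24.8 kb, exact permutation p = 0.257).

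By score the Sox17 island stood at 10.9 to 23.9% of its list, but by score per window it ranked 123 to 1462. In the vehicle livers this rank was at 1.32, 0.755 and 1.44% of the list and in the TCPOBOP livers at 2.58, 2.72, 7.90 and 7.34%. The groups did not overlap in this rank. At Sox14 the rank by score per window parted the groups too, at 1457 to 1850 with vehicle and 1855 to 1963 with TCPOBOP. As a percentage of the list it overlapped there, at 8.16 to 13.1% and 9.03 to 11.7%. At Sox17 the score per window itself was 6.54, 14.5 and 8.04 with vehicle and 6.49, 9.47, 5.00 and 5.49 with TCPOBOP, and these did overlap. Lists of different length and depth give no measure of change in rank, so the values are given as a description. In 6624 merged regions every liver had an island. All TCPOBOP livers ranked below all vehicle livers by score per window in 1.42% of them, and above in 3.35%.

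**Figure D3:**
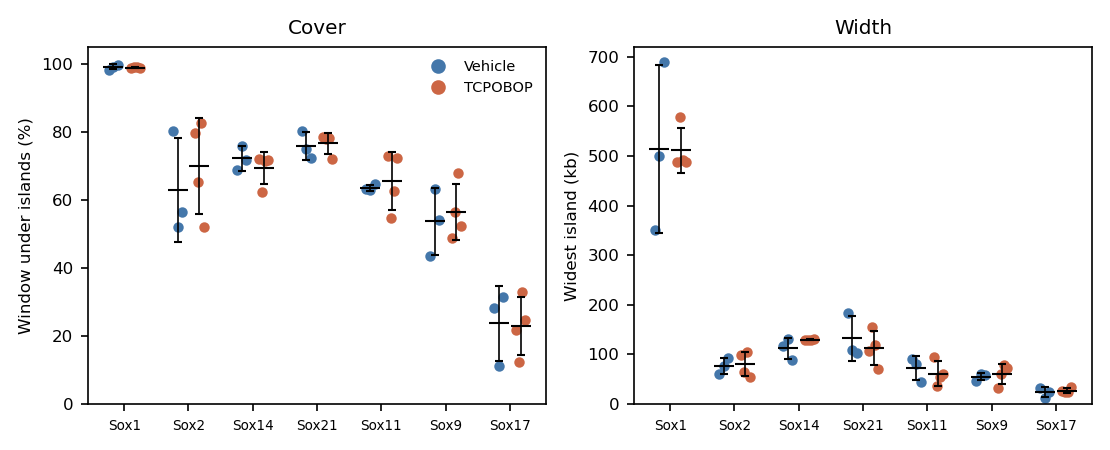
Cover of each window (left, % of its length) and width of its widest island (right, kb) in each liver. Points are livers and black bars are the mean ± SD of 3 vehicle (blue) and 4 TCPOBOP (orange) livers; the groups overlap at all 7 loci in both measures. Sox1 was bounded at island edges and the others are windows of 200 kb, so its cover is not comparable with theirs.

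Cover differed between the loci. Mean cover over the 7 livers was 99.0% in the Sox1 domain and, in the windows, 76.3% at Sox21, 70.6% at Sox14, 66.9% at Sox2, 64.7% at Sox11, 55.2% at Sox9 and 23.2% at Sox17. Neighbours in this order from Sox21 to Sox9 overlapped in the ranges of their livers, so their order is not firm. The highest cover at Sox17 lay below the lowest at Sox9. The genome was cut into 13160 tiles of 200 kb, whose median cover was 9.94%. Sox1, bounded at its own island edges, was given no share of tiles. A mean cover as high as at Sox21 was found in 6.16% of tiles. The share was 7.90% for Sox14, 9.13% for Sox2, 10.0% for Sox11, 14.3% for Sox9 and 35.7% for Sox17.

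**Figure D4:**
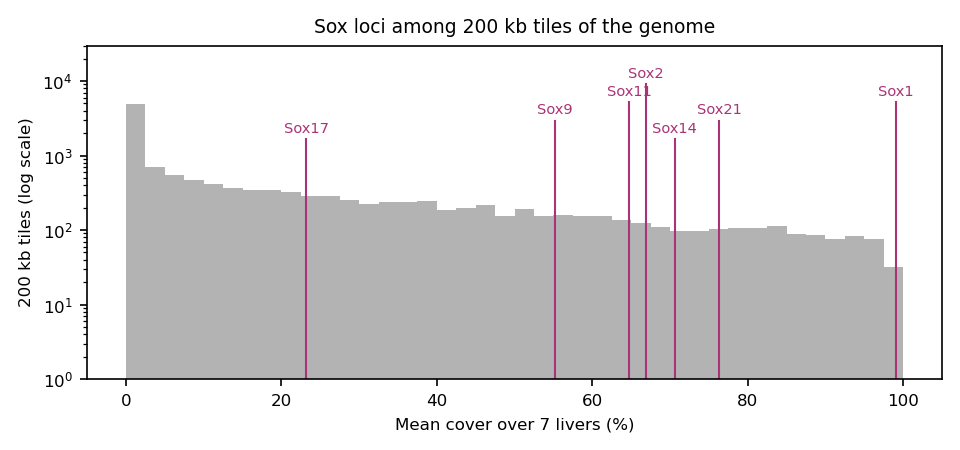
Mean cover over the 7 livers (%) of 13160 genome tiles of 200 kb (grey, number of tiles on a log scale) and of the 7 Sox loci (lines). Most tiles have little or no cover, and Sox17 lies at 23.2% with the others above 50%. Sox1 was bounded at its island edges, so its line is not comparable with the tiles.

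The livers also shared the marked stretches to different degrees. Of the length under an island in any liver, 97.0% was under islands in all 7 at Sox1, in its island-bounded domain, 75.9% at Sox21 and 72.7% at Sox14. At Sox11, Sox2 and Sox9 the share was 36.5, 35.6 and 33.4%, and at Sox17 it was 16.2%. The median over the 9206 tiles with an island was 11.8%. The stretch common to all livers over Sox17 was nevertheless unbroken from 4477601 to 4490000, or 12.4 kb. At Sox2 such a stretch ran for 52.0 kb and at Sox14 for 87.6 kb.

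**Figure D5:**
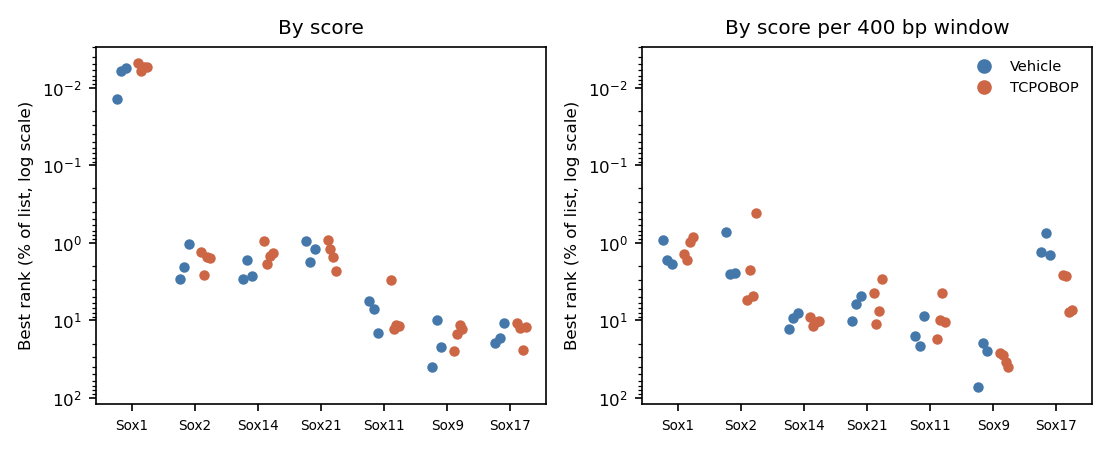
Best rank of an island at each locus as a percentage of its list (log scale, best at the top), by score (left) and by score per 400 bp window (right). Points are 3 vehicle (blue) and 4 TCPOBOP (orange) livers; Sox1 leads by score, and Sox17 overlaps Sox1 and Sox2 by score per window but lies below both by score.

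Rank by score and rank by density ordered the loci differently. By score the median ranks were 1 at Sox1, 217 at Sox21, 279 at Sox14, 294 at Sox2, 2152 at Sox11, 2280 at Sox17 and 2509 at Sox9. By score per window they were 272 at Sox1, 412 at Sox2, 448 at Sox17, 1013 at Sox21, 1855 at Sox14, 1953 at Sox11 and 5398 at Sox9. Sox17 thus moved up beside Sox2, and the wide domains at Sox14 and Sox21 moved down. Sox9 had the last median in both. By score its ranks ran from 1603 to 5650 and overlapped those of Sox17 (1940 to 4421) and Sox11 (629 to 2587). The order of these loci is therefore not firm. By score per window neighbours in the order overlapped as well. The best-scored island at Sox9 was the one over the position in only 3 livers.

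No change in island cover or width with TCPOBOP was detected at any of the 7 loci. The strength of the mark inside islands was not tested. In a limma fit of the 7 windows together with 8561 tiles, all 7 windows had an adjusted p of 1.00 and 0 an unadjusted p under 0.05, beside 0% and 3.39% of the tiles, and limma's standard error of the difference ran from 1.55 percentage points at Sox1 to 9.49 at Sox2. The groups overlapped in cover at 7 of 7 loci, and 3.43% of the tiles had groups that did not overlap, 2.09% with TCPOBOP higher and 1.34% with TCPOBOP lower. The exact tests cannot give a p below 0.0286, and no difference in cover or width reached it in the 7 tests of each. The Sox1 domain was chosen by the score rank and the cover of its islands in these lists, so its part in these counts is a description.

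The islands of the loci merged over all livers into 20 regions, of which 18 had islands in at least 2 livers and were tested. Of these, 0 had an adjusted p under 0.05 and 0 an unadjusted p under 0.05 in limma, and without trend and robust variance limma called 0 as well. Over all 13988 regions tested, 0% had an adjusted and 3.87% an unadjusted p under 0.05. Cover was higher with TCPOBOP in 10 of the 18 and lower in 8, with a median difference of 0.769 percentage points, beside 0.592 over all regions. Among the 13 regions with islands in all 7 livers the difference was widest past Sox11, on chromosome 12 from 28108801 to 28274800, most of which lies outside the window. Cover there was 60.0, 28.7 and 39.3% in vehicle replicates 1 to 3 and 68.9, 57.3, 64.1 and 69.2% in TCPOBOP replicates 1 to 4. Vehicle replicate 1 lay within the TCPOBOP range, and the region did not pass the threshold in limma. The difference was 22.2 percentage points, with SDs of 15.9 (vehicle, n = 3) and 5.53 (TCPOBOP, n = 4). The limma standard error of 23.0 exceeded both SDs, since limma also draws on the variance of the other regions. That standard error is thus no measure of the spread of these livers alone, and no exact test was run for this region. In 0 of the 18 the groups did not overlap, against 3.45% of all regions, 1.8% with TCPOBOP higher and 1.65% with TCPOBOP lower. An island was present in all 7 livers in 13 of the 20 Sox regions (65%), beside 38.1% of all 17394 regions; the Sox regions were chosen around genes and were longer, with a median of 86.2 kb against 32.4 kb.

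The 6 windows were set by distance. The farthest island counted lay 99.2 kb from its position and the nearest one left out lay 102.0 kb from its position, both at Sox14.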

How the data were processed

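Chromatin of 7 livers, each taken from its own animal, was immunoprecipitated for H3K27me3 and sequenced. The submitters' processing notes name Bowtie2 2.3.2, SICER 1.1 and build mm9. The deposited values were, for each liver, a list of islands with a SICER score. Per the names of the lists, SICER windows measured 400 bp, gaps up to 2400 bp were bridged and the E-value was 100. Input control and duplicate handling are not given in the sources used here. Islands were called against each library's own depth, so an equal change of the mark across the genome would go unseen, and absence of an island means only that the list had none.

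From the lists, cover (percentage of a window or merged region under islands), width and within-list rank were computed with Python 3.11.15, NumPy 2.4.6 and pandas 2.3.3. Single values were compared with two-sided exact permutation tests over the 35 splits; 95% intervals invert that test. Covers of windows with 200 kb tiles, and of merged regions, were fitted with limma 3.58.1 (R 4.3.3; trend and robust variance; features with islands in at least 2 livers), with Benjamini-Hochberg adjustment over each table and a threshold of 0.05. The functions were tested on simulated data. Named were all 7 genes and the 3 regions nearest to the Sox1 domain in score rank. Members and lists were chosen with earlier results of these data known. Other SOX genes were not analysed here, since no positions in mm9 were at hand. Alternatives were other windows, filters, mergings and fits, equal list lengths, a replicate block and leaving out each liver.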

Additional observations from a re-analysis of the deposited data

Results flagged for a closer look

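In 5 of 21 measures of the 4 TCPOBOP livers, 1 liver stood far from the other 3. Chance puts about 1 group in 20 there, but the 21 measures share islands and livers, so the count is no test of an excess. At Sox1, TCPOBOP replicate 2 had a widest island of 579.6 kb against 488.0 to 491.6 kb, and its only gap lay at another place than theirs. At Sox14, TCPOBOP replicate 2 had 62.4% of the window under islands against 71.4 to 72.0%. At Sox21, TCPOBOP replicate 4 had a cover of 72.0% against 78.0 to 78.4%. At Sox11, the best island of TCPOBOP replicate 1 stood at 3.06% of its list by score against 11.6 to 13.2%. At Sox17, that of TCPOBOP replicate 3 stood at 23.9% against 11.0 to 12.7%. Vehicle livers, 3 in number, were not examined in this way.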

How the results depend on the processing

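No cover, width or Sox region passed its test under any setting run, but with 1 liver left out the exact width tests are too small to pass. With the 25% of islands that scored lowest dropped, the cover difference was 0.733 percentage points at Sox14 and 3.30 at Sox17, and with lists of equal length it was 1.70 at Sox17. With 50 kb to each side it was -3.93 at Sox21 and 7.37 at Sox17. With 200 kb it was -5.78 at Sox21, and the widest island differed by 12.2 kb at Sox11 and -18.7 kb at Sox9. The cause was not tested. The width of the island over the gene position was added after the data were seen. At Sox2, Sox14 and Sox21 it is the widest island in every liver, so its difference is the same by construction. At the others it kept its direction, at -10.8 kb for Sox11, 10.9 kb for Sox9 and 6.6 kb for Sox17 against -10.4, 5.00 and 3.53 kb.

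Leaving out 1 liver moved the cover difference between -0.579 and 0.145 at Sox1, 1.40 and 15.6 at Sox2, -4.50 and -0.467 at Sox14, -1.05 and 2.95 at Sox21, -0.400 and 5.60 at Sox11, -2.35 and 7.45 at Sox9, and -7.05 and 3.15 at Sox17. It moved the width difference between -83.1 and 86.1 kb at Sox1, -4.10 and 12.9 kb at Sox2, 5.70 and 27.1 kb at Sox14, -24.3 and -1.30 kb at Sox11, -33.6 and 6.6 kb at Sox21, -0.933 and 14.5 kb at Sox9, and -1.80 and 8.20 kb at Sox17. Over the whole table of regions limma called 13 without trend and robust variance, 1 with no filter on livers, and 0 to 6 with 1 liver left out (4 without vehicle replicate 1 and 6 without vehicle replicate 3); 0 of these were at the Sox loci.

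Same-numbered livers had correlations of deviations of 0.0269, 0.278 and 0.0693, so the numbers were not taken to pair the livers, and 1 of 3 vehicle livers correlated best with its own number. With the replicate number as a block the cover difference at Sox11 was -0.200 and that at Sox2 12.9. TCPOBOP replicate 4 has no vehicle liver of its number, so in this fit it added nothing to the difference. Leaving that liver out without a block gave the same -0.200 and 12.9, as it must by construction. These shifts therefore reflect the loss of that liver, and whether blocking had an effect cannot be read from them. With the block 0 regions were called, at the Sox loci or in all. Where a locus counted as marked only with at least 50% of its window under islands, Sox17 was marked in 0 livers, Sox9 in 5 and the other 5 loci in 7.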
